A study of Mus musculus with 32 samples.

Results

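Matrix metalloproteinases are zinc enzymes that cut collagens, elastin and other proteins of the extracellular matrix, and tissue inhibitors of metalloproteinases (Timps) bind and block them. In liver tumours they are made by tumour cells, fibroblasts, macrophages and neutrophils, and the balance of enzyme and inhibitor sets how the matrix is remodelled. The 10 genes described here are 7 enzymes (Mmp2, Mmp3, Mmp8, Mmp9, Mmp12, Mmp13 and Mmp14) and 3 inhibitors (Timp1, Timp2 and Timp3), taken by name from the 54446 genes counted. All 10 had enough reads to be tested in every comparison.

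RNA was sequenced from 32 tumours. BNL-MEA, a cancer line of mouse liver origin, had been implanted into BALB/c livers to form them. Every tumour therefore carried the same line in the same strain, and every group came with vehicle-treated tumours of its own experiment. The dose experiment (labelled batch p112) held 4 vehicle tumours, 3 given regorafenib at 5 mg/kg/day (low dose) and 3 given 20 mg/kg/day (high dose). Regorafenib, taken by mouth, inhibits the VEGF receptors and a range of other kinases. The DC-101 experiment (p103) held 4 vehicle tumours, 3 low dose tumours and 3 given DC-101, an antibody that blocks the mouse VEGF receptor Kdr, at 800 µg on days 1, 3 and 5. The anti-PD1 experiment (p101) held 3 tumours each of vehicle, low dose, anti-PD1 antibody and low dose plus anti-PD1. Nothing in the labels says whether replicates came from separate animals, so p-values measure the spread between these samples.

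Each library held 16.8 to 27.7 M counted reads. Levels are given as log2 CPM, the log2 of reads per 1 M counted reads after scaling within an experiment. A change is the log2 ratio fitted by edgeR, with its standard error (SE), and "passed the test" means an adjusted p under 0.05 in edgeR's quasi-likelihood test with Benjamini-Hochberg adjustment over all genes. The tumours differed in composition: 11 hepatocyte markers summed to between 22.2 and 84100 CPM, and 6 markers of epithelial and tumour cells to between 14.5 and 954 CPM. Libraries that stood apart were high dose replicate 1 (highest hepatocyte sum), low dose replicate 2 of p101 (highest macrophage sum, 20800 CPM), low dose replicate 3 of p103 and vehicle replicate 3 of p101. Values without them are given beside the results they moved most. In bulk tissue, fewer cells of a type and less RNA per cell cannot be told apart.

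Of the 10 genes, 4 lie in 1 cluster of metalloproteinase genes on mouse chromosome 9 (GRCm38): Mmp13 at chr9:7272514-7283331, Mmp12 at chr9:7344381-7369499, Mmp3 at chr9:7445822-7455975 and Mmp8 at chr9:7558456-7568485, all on the plus strand. The other genes are spread over the genome, with Mmp2 at chr8:92827291-92853420, Mmp9 at chr2:164940780-164955850, Mmp14 at chr14:54431612-54445364, Timp1 at chrX:20870166-20874735, Timp2 at chr11:118301069-118355740 and Timp3 at chr10:86300372-86349506. Timp2 is on the minus strand and the rest are on the plus strand. Exons of Mmp12 share 157 bases with Mmp1b and those of Timp3 share 1733 bases with Syn3, in both cases on the opposite strand. Timp1 lies within Syn1 on the other strand without sharing exon bases. Mmp1b had at most 3 reads in a library and Syn3 a median of 36.5, although 1 vehicle library of the dose experiment held 4981 Syn3 reads.

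The upstream sequences of the chromosome 9 genes are shown because Mmp3, Mmp8 and Mmp13 varied together between the libraries of p103 and p101, as described later. RefSeq start sites on GRCm38.p6 were matched for 8 of the 10 genes, with 2 starts for Mmp12. Windows from 250 bases before to 50 after the start were searched for the AP-1 letters TGAGTCA, whose other strand reads TGACTCA. These letters stood in the windows of Mmp3, Mmp13 and the second start of Mmp12, and in 5.2% of the 32851 promoter windows of all genes. They did not stand in those of Mmp8, Mmp14, Timp1, Timp2, Timp3 or the first start of Mmp12. The 100 bases before the starts of Mmp13, Mmp3 and Mmp8 and the second start of Mmp12 are printed. The first start of Mmp12, without these letters, is not shown. Sequences run 5′ to 3′ on the plus strand, with the AP-1 letters in capitals. They cover chr9:7272414-7272513 for Mmp13, chr9:7445722-7445821 for Mmp3, chr9:7347274-7347373 for the second start of Mmp12 and chr9:7558329-7558428 for Mmp8.
Mmp13: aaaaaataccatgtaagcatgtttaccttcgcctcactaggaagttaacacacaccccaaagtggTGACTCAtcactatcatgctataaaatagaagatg
Mmp3: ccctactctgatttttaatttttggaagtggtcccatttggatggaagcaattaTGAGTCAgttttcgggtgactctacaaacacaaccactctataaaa
Mmp12, second start: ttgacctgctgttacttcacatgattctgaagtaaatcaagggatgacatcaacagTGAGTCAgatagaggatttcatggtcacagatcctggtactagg
Mmp8: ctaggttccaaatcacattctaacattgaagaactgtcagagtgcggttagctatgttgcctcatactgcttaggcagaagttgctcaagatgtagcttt
The first AP-1 base lies 35 bases before the start in Mmp13, 46 in Mmp3 and 44 in Mmp12. A match of letters is a description and shows no binding.

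The 3 inhibitors and Mmp2 were the most abundant of the 10 genes in untreated tumours, and the collagenases, stromelysin and elastase were low. Compared per kilobase of exon over the 11 vehicle tumours, the mean log2 CPM per kb was 8.09 for Timp3, 7.49 for both Timp1 and Timp2, 7.36 for Mmp2, 6.41 for Mmp14 and 4.77 for Mmp9. It was 1.73 for Mmp13, 1.18 for Mmp12, 0.97 for Mmp3 and -0.29 for Mmp8. Mmp2, a gelatinase, stood above Mmp14, the membrane-bound enzyme that activates it, in 11 of 11 tumours, and Mmp14 above the other gelatinase Mmp9 in 11 of 11. The order of Timp1 and Timp2 (4 of 11 tumours with Timp1 higher), of Timp2 and Mmp2 (7 of 11), of Mmp13 and Mmp12 (6 of 11) and of Mmp12 and Mmp3 (7 of 11) was within the spread between tumours.

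**Figure D1:**
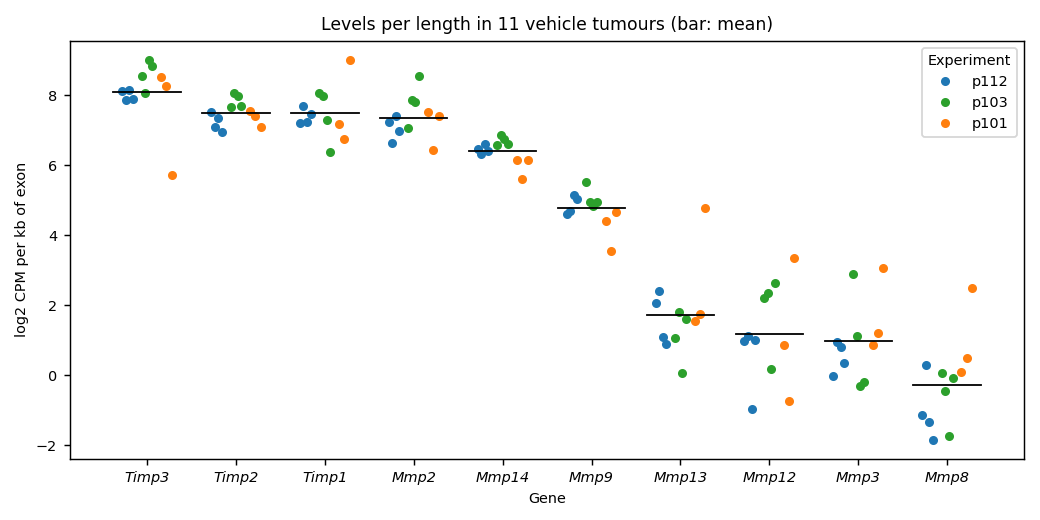
Level of each gene as log2 CPM per kb of exon (y axis) in the 11 vehicle tumours, coloured by experiment, with the mean over the 11 as a bar. Timp3, Timp1, Timp2 and Mmp2 sit highest, and Mmp8 has the lowest mean at -0.29.

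Levels of the less abundant genes spread more widely. Over the 32 libraries, CPM ranged 3.87-fold for Mmp14, 5.31-fold for Timp2, 9.24-fold for Mmp9, 11-fold for Timp1, 12.9-fold for Timp3 and 16.2-fold for Mmp2, but 867-fold for Mmp3 (0.272 to 236 CPM), 765-fold for Mmp13 (0.218 to 166 CPM), 69-fold for Mmp12 and 62.5-fold for Mmp8. The lowest values of Mmp3, Mmp8 and Mmp13 rest on 4 or 5 reads in 1 library, low dose replicate 2 of p101.

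**Figure D2:**
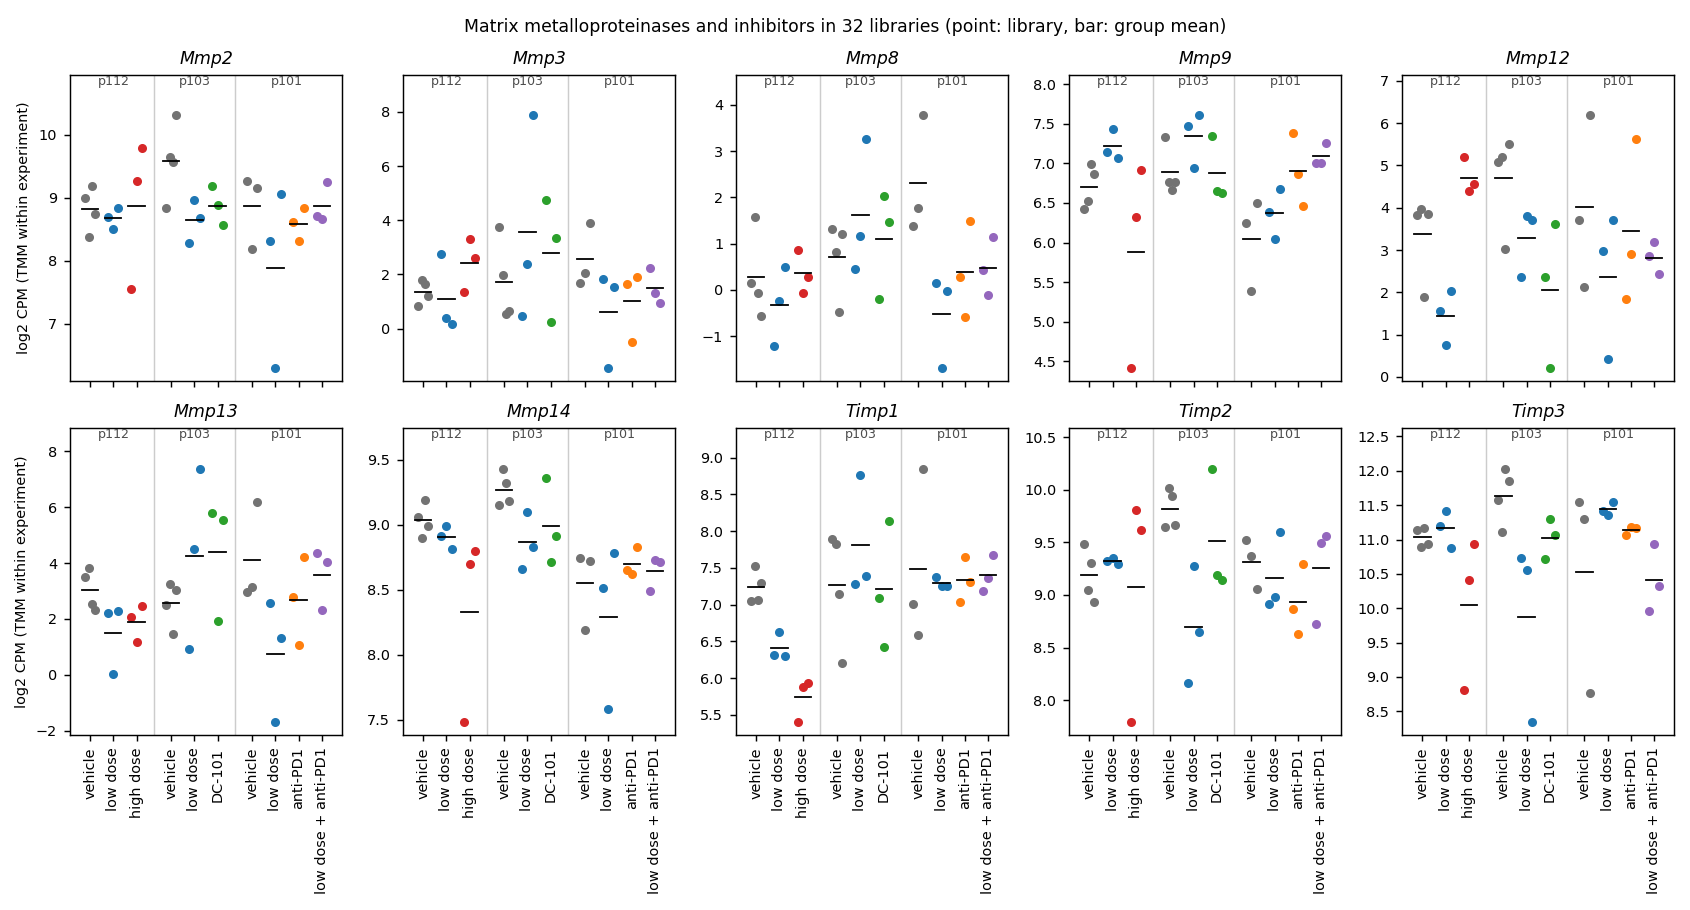
Log2 CPM (y axis, scaled within each experiment) of the 10 genes in every library, by experiment and treatment, with a bar at each group mean and its own y axis for each gene. Mmp3, Mmp12 and Mmp13 spread over several log2 units within groups, and Timp1 steps down from vehicle to low to high dose in p112.

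Mmp12, the macrophage elastase, was higher in tumours given the high dose of regorafenib than in those given the low dose. In the dose experiment its log2 CPM was 3.83, 3.96, 1.88 and 3.86 in the vehicle tumours, 1.57, 0.75 and 2.03 at low dose and 5.20, 4.39 and 4.55 at high dose. The high dose tumours were all above every vehicle and low dose tumour, and the low dose tumours were below the vehicle tumours apart from vehicle replicate 3. High dose exceeded low dose by 3.25 (SE 0.57, edgeR adjusted p = 0.0227). Mmp12 was the 1 gene of 10 to pass in this comparison, where 4.22% of all genes passed. Against vehicle, neither dose passed: the change was 1.17 (SE 0.48, adjusted p = 0.105) at high dose and -2.07 (SE 0.53, adjusted p = 0.693) at low dose.

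The call on the 2 doses was lost when low dose replicate 1 (3.24) or replicate 2 (2.93) was left out, and when the vehicle tumours were left out of the fit (3.24, adjusted p = 0.146). It was also lost with the replicate block. It was kept without high dose replicate 1, at 2.98 with adjusted p = 0.0365, and with the hepatocyte marker score as a covariate, at 2.96.

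Macrophage markers had the opposite order to Mmp12 over the groups. The 12 markers summed to 2830 to 4670 CPM in vehicle, 5780 to 7500 at low dose and 988 to 2380 at high dose, with the 3 groups apart. At high dose 8 of the 12 fell against vehicle, where 15.6% of all genes passed, and 7 of the 12 against low dose, where 4.22% did. With only the groups compared 4 genes in all passed against vehicle and 0 against low dose, so that the calls between doses were lost, and with the replicate block 1 gene in all passed in each. Csf1r, the receptor for the macrophage growth factor, changed by -1.68 (adjusted p = 0.0308) and -2.41 (adjusted p = 0.0128), and the mannose receptor Mrc1 by -1.42 (adjusted p = 0.0277) and -2.36 (adjusted p = 0.00678). At low dose 11 of the 12 were higher than in vehicle and none passed, with 7 at an unadjusted p under 0.05 (4.94% of all genes). Marco was at 0 in some library. Markers of T cells, epithelial and tumour cells and hepatocytes were higher at high dose, as Mmp12 was. Against vehicle, 4 of 8 T cell markers and 3 of 6 epithelial and tumour cell markers rose, all 8 and all 6 being above 0, with medians of 1.61 and 1.96. The epithelial sums were 954, 255 and 197 CPM in high dose replicates 1 to 3, where hepatocyte sums were 84100, 17900 and 3260 CPM. Whether the epithelial markers rose in tumour cells or with liver tissue was not tested. All 11 hepatocyte markers were above 0 (median 3.76, each at an unadjusted p under 0.05, against 40.1% of all genes) and none passed edgeR's test. Of 11 neutrophil markers 6 were above 0 (median 1.98) and 1 fell, and the sum of 12 was 53 to 90.4 CPM against 99.8 to 217 CPM in vehicle. Against low dose, 2 of the 6 epithelial markers rose and 1 neutrophil marker fell, and no T cell or hepatocyte marker passed, though all were above 0. The T cell sum was 11.2 to 22.2 CPM in vehicle, 23.5 to 30.2 at low dose and 25.1 to 59.7 at high dose. The part of any of these cell types in the Mmp12 values was not tested.

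**Figure D3:**
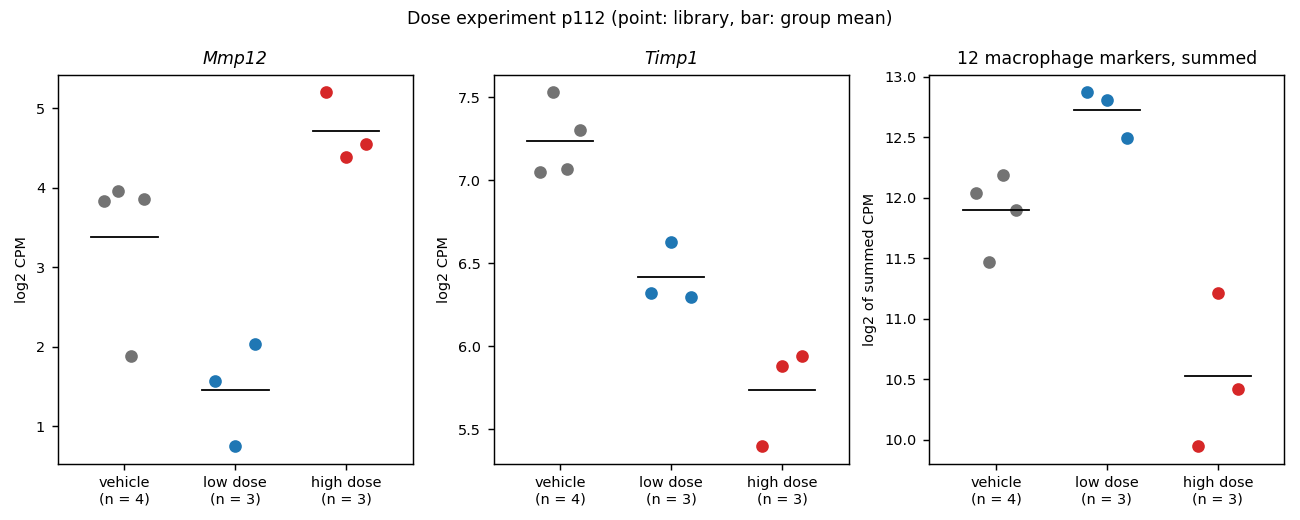
Mmp12 and Timp1 as log2 CPM and the summed CPM of 12 macrophage markers on a log2 scale (y axes) in the 10 tumours of the dose experiment, with a bar at each group mean. Mmp12 is lowest at low dose and highest at high dose, the macrophage sum shows the opposite order, and Timp1 falls at each step with no overlap.

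Timp1, a secreted inhibitor of most metalloproteinases, fell at the high dose. Its log2 CPM was 7.05, 7.53, 7.07 and 7.30 in vehicle, 6.32, 6.63 and 6.30 at low dose and 5.40, 5.88 and 5.94 at high dose, so the 3 groups did not overlap. The change at high dose was -1.49 (SE 0.19, edgeR adjusted p = 0.0143), and it was the 1 gene of 10 to pass against vehicle, where 15.6% of all genes passed. At low dose the change was -0.83 (SE 0.18, unadjusted p = 0.00138, adjusted p = 0.525), in a comparison where no gene passed edgeR's test (0% of all genes). There 2 of 10 members, Mmp12 and Timp1, had an unadjusted p under 0.05 in edgeR, against 4.94% of all genes, and the same 2 passed with DESeq2, among 85 genes in all. The step from low to high dose was -0.67 (SE 0.19, adjusted p = 0.0819).

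The high dose call on Timp1 was kept without high dose replicate 1 (-1.32, adjusted p = 0.0125). It was lost without vehicle replicate 3 (-1.55) or replicate 4 (-1.48), and when the low dose tumours were left out of the fit (-1.49, adjusted p = 0.0592). The replicate block also removed it. The lower level at low dose was not seen in p103 and rested on 1 library in p101. In the DC-101 experiment Timp1 was at 7.89, 7.82, 7.14 and 6.20 in vehicle and at 7.28, 8.76 and 7.39 at low dose, a change of 0.57 (SE 0.55) that became -0.05 without low dose replicate 2. The values overlapped, with the highest in low dose replicate 2 and the lowest in vehicle replicate 4. In the anti-PD1 experiment the vehicle tumours were at 7.01, 6.59 and 8.85 and the low dose tumours at 7.37, 7.25 and 7.26, a change of -0.55 (SE 0.48) that became 0.48 without vehicle replicate 3.

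No other member passed at high dose, but several values rested on high dose replicate 1, the library with the highest hepatocyte sum. Mmp14 was at 9.06, 8.90, 9.19 and 8.99 in vehicle and at 7.48, 8.70 and 8.80 at high dose, with no overlap and a change of -0.60 (SE 0.28, adjusted p = 0.138). Without replicate 1 that change was -0.27. Timp3, the matrix-bound inhibitor, changed by -0.74 (SE 0.41) at high dose and by -0.32 without replicate 1, and Mmp9 by -0.51 (SE 0.46) and by -0.04. Against low dose, Mmp9 changed by -1.01 (SE 0.49), Mmp14 by -0.47 (SE 0.29) and Timp3 by -0.89 (SE 0.43), none of which passed. Without replicate 3, the high dose tumour with the lowest hepatocyte sum, Timp3 passed against vehicle (-1.25, adjusted p = 0.0411) and Mmp9, Timp1 and Timp3 passed against low dose, in fits where genes past the test rose from 2582 to 7030 and from 697 to 4488 of all genes. Mmp3 changed by 1.24 (SE 0.68) and Mmp13 by -1.19 (SE 0.62) against vehicle, neither past the test. The signs of these changes differed although both genes lie in the chromosome 9 cluster with Mmp12.

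The low dose was given in all 3 experiments, 9 tumours against 11 vehicle tumours. In the fit over the 3 experiments, 0 of the 10 genes passed edgeR's test, where 1.72% of all genes did. At an unadjusted p under 0.05 there were 3 of 10 (Mmp12, Mmp9 and Mmp2), against 15.9% of all genes. The change was below 0 for 8 of 10 genes, with a median of -0.32, against 46.4% and 0.02 over all genes.

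Mmp12 came closest, at -1.88 (SE 0.49, edgeR adjusted p = 0.0542). It was below the mean of its own vehicle group in 9 of 9 low dose tumours, although the groups overlapped in each experiment. This count was not made over all genes. In the DC-101 experiment vehicle was at 5.07, 5.20, 3.03 and 5.51 and low dose at 2.36, 3.81 and 3.71, a change of -1.53 (SE 0.81). Vehicle replicate 3 was the low one there. In the anti-PD1 experiment vehicle was at 3.71, 2.12 and 6.19 and low dose at 2.98, 0.42 and 3.71, a change of -2.03 (SE 1.15) that fell to -0.23 without vehicle replicate 3. Without that library the change over the 3 experiments was -1.43 (adjusted p = 0.121). Over all alternatives Mmp12 lay between -1.43 and -2.05, and it passed with DESeq2 (adjusted p = 0.00229, among 892 genes against 268 in edgeR), without the anti-PD1 experiment (-1.80, adjusted p = 0.0468, among 407 genes), and without vehicle replicate 3 of p103 or vehicle replicate 1 or 2 of p101.

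Mmp9 is a gelatinase stored by neutrophils and made by many cell types. It was the 1 enzyme above its vehicle mean in 9 of 9 low dose tumours, a count not made over all genes. Its vehicle levels were 6.43, 6.52, 6.99 and 6.87 in p112, 7.33, 6.77, 6.67 and 6.77 in p103 and 6.25, 5.39 and 6.50 in p101. The low dose tumours were at 7.15, 7.43 and 7.07, at 7.47, 6.94 and 7.61 and at 6.39, 6.05 and 6.68. The groups were apart in p112 and overlapped in the other experiments. The change was 0.50 (SE 0.45), 0.46 (SE 0.24) and 0.28 (SE 0.32) by experiment and 0.42 (SE 0.14, edgeR adjusted p = 0.133) over the 3.

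Mmp2, Mmp14 and Timp2 had changes below 0 that did not pass. Mmp2 changed by -0.62 (SE 0.27, edgeR adjusted p = 0.264) over the 3 experiments, and by -0.17, -1.01 and -0.67 in p112, p103 and p101. Low dose replicate 2 of p101 held the lowest Mmp2 of all libraries, at 6.29 beside 8.32 and 9.06 in its group, and without it the p101 change was -0.21. Mmp14 changed by -0.25 (SE 0.12, adjusted p = 0.33) and was below its vehicle mean in 8 of 9 tumours, a count not made over all genes. Timp2, which carries pro-Mmp2 to Mmp14 and also inhibits both, changed by -0.36 (SE 0.19, adjusted p = 0.359).

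**Figure D4:**
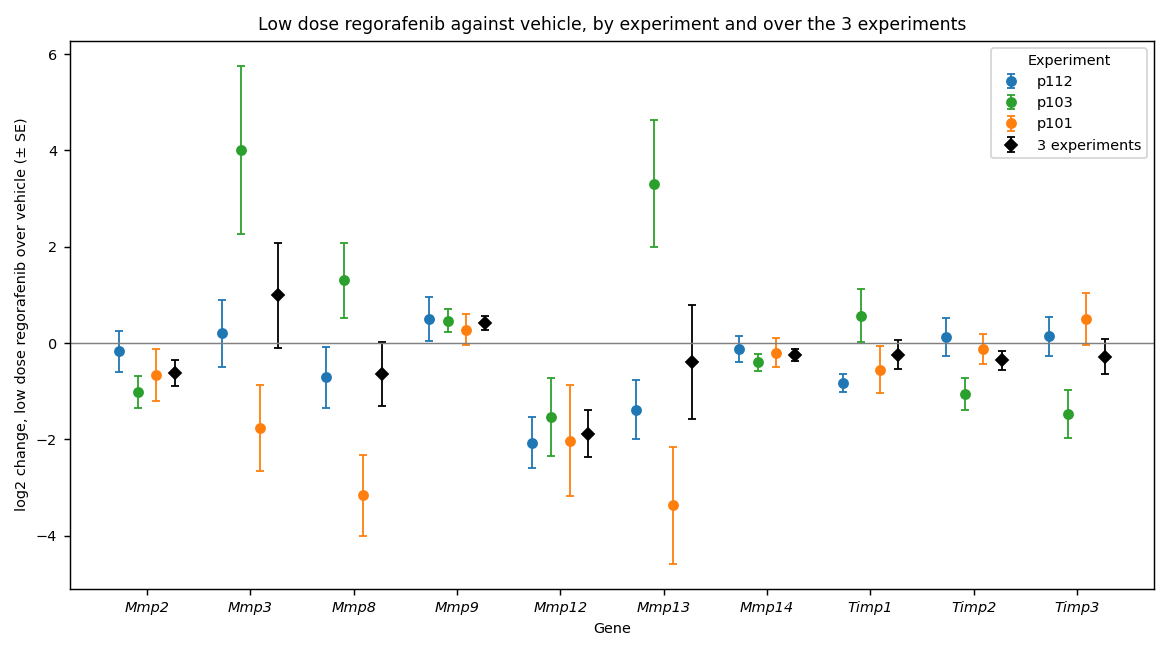
Log2 change of low dose regorafenib over vehicle (y axis, point with SE) for each gene in p112, p103, p101 and over the 3 experiments (black diamonds). Mmp12 lies below 0 and Mmp9 above 0 in each experiment, while Mmp3, Mmp8 and Mmp13 take opposite signs in p103 and p101.

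The stromelysin Mmp3, which cleaves and activates other metalloproteinases, and the collagenases Mmp8 and Mmp13 went in opposite directions in different experiments. Mmp13 changed by -1.38 (SE 0.62) in p112, 3.31 (SE 1.32) in p103 and -3.37 (SE 1.21) in p101. Mmp3 changed by 0.20 (SE 0.69), 4.01 (SE 1.75) and -1.76 (SE 0.89), and Mmp8, the collagenase of neutrophils, by -0.71 (SE 0.63), 1.30 (SE 0.77) and -3.16 (SE 0.84). In edgeR 0 of the 10 genes passed in p103, where 0.0248% of all genes did, and 0 of 10 in p101, where 0% did. At an unadjusted p under 0.05 there were 6 of 10 in p103 (17.1% of all genes) and 2 of 10 in p101 (11.8%). With DESeq2, Mmp2 (adjusted p = 0.0277), Timp2 (0.0191) and Timp3 (0.0209) passed in p103 among 1097 genes in all, and Mmp8 (0.00697) and Mmp13 (0.047) in p101 among 425. The differences between experiments gave unadjusted p-values of 0.0031 for Mmp13, 0.00537 for Mmp8, 0.00804 for Timp2, 0.022 for Mmp3 and 0.0412 for Timp3 in edgeR. None of the 5 passed after adjustment (0% of all genes did), and Mmp13 passed with DESeq2 (adjusted p = 0.0222), among 100 genes in all. Unadjusted p-values under 0.05 were found for 5 of 10 members and 9.52% of all genes.

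Single libraries set most of these values. In p103, Mmp3 was at 3.74, 1.97, 0.54 and 0.65 in vehicle and at 0.46, 2.37 and 7.88 at low dose. Mmp13 was at 2.49, 3.24, 1.47 and 3.02 in vehicle and at 0.91, 4.49 and 7.38 at low dose. Low dose replicate 3 was the highest and replicate 1 the lowest for both genes, and replicate 2 was within the vehicle range for Mmp3 and above it for Mmp13. Without replicate 3 the changes in p103 were -0.65 for Mmp3, 0.91 for Mmp13 and -0.02 for Mmp8, and the differences between experiments had unadjusted p-values of 0.358, 0.0374 and 0.0256.

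In p101, Mmp13 was at 2.96, 3.16 and 6.18 in vehicle and at 2.58, -1.70 and 1.30 at low dose. Mmp8 was at 1.38, 1.78 and 3.78 in vehicle and at 0.14, -1.70 and -0.02 at low dose. The low dose tumours were below every vehicle tumour for both genes, with the highest value in vehicle replicate 3 and the lowest in low dose replicate 2. Without vehicle replicate 3 the changes were -1.53 for Mmp13, -2.01 for Mmp8 and -0.73 for Mmp3. Without low dose replicate 2 they were -2.83, -2.75 and -1.24. The 12 neutrophil markers summed to 244, 128 and 486 CPM in these vehicle tumours and to 234, 198 and 193 CPM at low dose, with Ly6g, Elane and Camp at 0 in some library. Of 11 of these markers that could be tested, 9 were lower at low dose in p101, with a median change of -1.54, 6 at an unadjusted p under 0.05 in edgeR (11.8% of all genes) and none past the test. In p103 all 10 that could be tested were higher, with a median of 1.58, 2 at an unadjusted p under 0.05 (17.1% of all genes) and none past the test, and the 12 summed to 102 to 260 CPM in vehicle and 159 to 530 CPM at low dose. Their part in the Mmp8 values was not tested. Hepatocyte markers were higher at low dose in p103, 11 of 11, with a median of 3.09. Their sums were 22.2 to 4920 CPM in vehicle and 1420 to 17700 CPM at low dose. In p101, 10 of 11 were lower (median -1.58, sums 8890 to 11800 CPM and 867 to 4130 CPM). Of 6 epithelial and tumour cell markers, 5 were higher in p103 (median 0.5) and 6 lower in p101 (median -1.25). None of these passed, and the part of either list in the member values was not tested.

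Timp3 was low in the p103 and p101 libraries where Mmp3 and Mmp13 were highest. In p103 it was at 11.57, 11.11, 12.03 and 11.85 in vehicle and at 10.73, 10.56 and 8.34 at low dose, without overlap and with the lowest level in replicate 3. The change was -1.48 (SE 0.50, adjusted p = 0.202), and -1.03 without that tumour. In p101 vehicle was at 11.54, 11.30 and 8.76 and low dose at 11.42, 11.36 and 11.55, a change of 0.49 (SE 0.54) that became 0.02 without vehicle replicate 3, the low one. In p112 the change was 0.14 (SE 0.40). Timp2 was lower at low dose in p103, at 8.16, 9.28 and 8.65 against 9.65, 10.02, 9.94 and 9.67 in vehicle. Those groups did not overlap, and the change was -1.06 (SE 0.33, adjusted p = 0.172). The 12 fibroblast markers summed to 1660, 3850 and 3700 CPM in these low dose tumours and to 4130 to 5310 CPM in vehicle, also without overlap and lowest in replicate 1, with none at 0 and none past the test. Endothelial markers were also lower there, 10 of 10 with a median of -1.49. Of these, 7 had an unadjusted p under 0.05 in edgeR (17.1% of all genes) and none passed. Their sums were 136 to 180 CPM at low dose and 268 to 607 CPM in vehicle, without overlap. The part of fibroblasts or endothelial cells in the Timp2 and Timp3 values was not tested. Timp2 changed by 0.12 (SE 0.39) in p112 and by -0.13 (SE 0.31) in p101.

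Over the 32 libraries, each centred on the mean of its experiment, the members fell into sets that varied together. Mmp2 and Mmp14 correlated at r = 0.76 (0.66 in p112, 0.71 in p103 and 0.93 in p101), Mmp14 and Timp2 at 0.66 (0.79, 0.91 and 0.28) and Mmp2 and Timp2 at 0.61 (0.87, 0.71 and 0.39). Mmp9 and Mmp14 correlated at 0.62, with 0.90 in p112 and 0.52 in p101 but -0.23 in p103. Mmp3 and Mmp13 correlated at 0.76, with 0.87 in p103 and 0.89 in p101 but 0.03 in p112, and Mmp8 and Mmp13 at 0.67. Mmp3 and Mmp8 correlated at 0.50, with 0.49 in p103 and 0.85 in p101 but -0.20 in p112. Timp3 ran against these, at -0.60 with Mmp3, -0.58 with Mmp13 and -0.57 with Mmp8. In p112 alone these values were -0.11, 0.02 and -0.42. Mmp12 correlated at 0.43 with Mmp13, its neighbour in the cluster (0.40 in p112, 0.16 in p103 and 0.70 in p101). It correlated about as much with Mmp8 (0.45) and with Mmp2 on chromosome 8 (0.41). The points include treated and untreated tumours and share library depth and tissue composition.

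**Figure D5:**
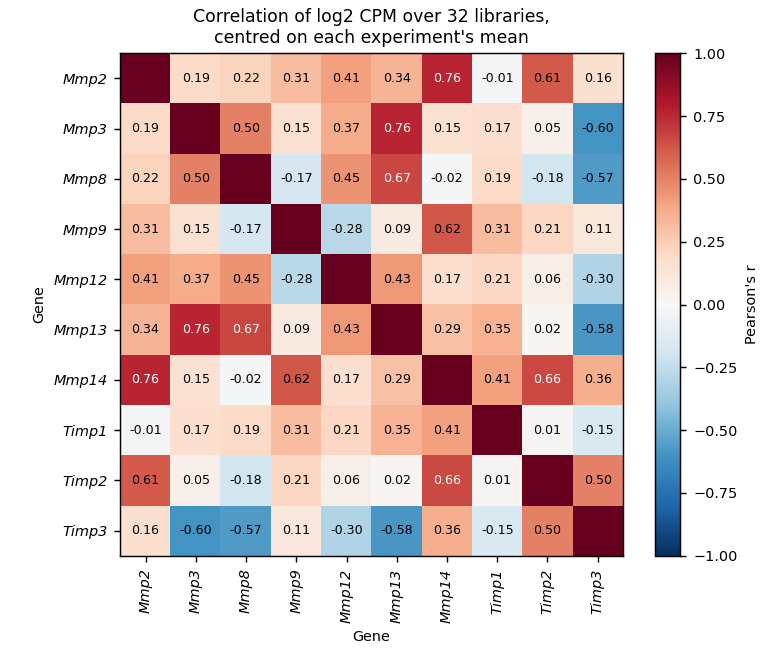
Pearson's r between the log2 CPM of each pair of genes over 32 libraries centred on the mean of each experiment (colour and printed value, from -1 to 1). Mmp2, Mmp14 and Timp2 form 1 positive block and Mmp3, Mmp8 and Mmp13 another, which is negative with Timp3.

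The genes most like each member by the same measure were sought among 12857 genes whose mean log2 CPM reached 1. For Mmp12 they were Il7r (r = 0.84), which encodes the interleukin-7 receptor, Fnip2 (0.76) and Rassf8 (0.76). For Timp1 they were the lactate transporter gene Slc16a3 (0.87), the cytokine Il11 (0.87) and the hyaluronan receptor Cd44 (0.83). Mmp3 had Mmp13 itself as its nearest gene, followed by Rhbdd2 (0.74), and Rhbdd2 was also nearest to Mmp13 (0.82). Mmp8 was followed by the phosphatase gene Dusp1 (0.81), Fst (0.79) and Mafk (0.79).

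Of the other members, Mmp14 was most like the retinoic acid receptor gene Rarg (0.94), Mmp9 most like Chst14 (0.90), Timp3 most like Fbxl16 (0.89), Mmp2 most like Nynrin (0.87) and Timp2 most like Mxra8 (0.83).

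DC-101 and low dose regorafenib were set against the same 4 vehicle tumours in p103. After DC-101, Mmp12 was at 2.37, 0.20 and 3.61 against 5.07, 5.20, 3.03 and 5.51 in vehicle, a change of -2.34 (SE 0.85, edgeR adjusted p = 0.341). Replicate 3 overlapped the lowest vehicle tumour and the others lay below all of them. Mmp13 was at 5.80, 1.91 and 5.53, of which replicates 1 and 3 were above every vehicle tumour, a change of 2.46 (SE 1.29), and Mmp3 changed by 1.32 (SE 1.64). The Mmp3 change was 0.18 without DC-101 replicate 1, 2.47 without vehicle replicate 1 and 0.14 with the replicate block, and the Mmp12 change ran from -1.80 without DC-101 replicate 2 to -3.32 without replicate 3. Mmp2 changed by -0.78 (SE 0.32), or by -0.49 without vehicle replicate 4 and -0.45 with the replicate block, and Timp3 by -0.63 (SE 0.49). None of the 10 genes passed, as was so for all genes (0%), and 2 of 10 members and 13.2% of all genes had an unadjusted p under 0.05. With DESeq2, 373 genes passed and no member was among them. Directly against DC-101, low dose regorafenib differed by -0.83 (SE 0.34, edgeR adjusted p = 0.561) for Timp2 and by 0.81 (SE 0.84) for Mmp12, and no gene passed there either (0%). Timp2 differed by -0.42 without DC-101 replicate 1, and Mmp12 by 0.27 without DC-101 replicate 2 and 1.78 without replicate 3. All 11 hepatocyte markers were higher after DC-101 than in vehicle (median 3.57) and none passed. Their sums were 61.1 to 25300 CPM against 22.2 to 4920 CPM, and their part was not tested.

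Anti-PD1 blocks a checkpoint receptor of T cells. Mmp9 had a higher mean after it, alone or with regorafenib, though neither change passed. It was at 6.25, 5.39 and 6.50 in vehicle, at 7.39, 6.87 and 6.46 after anti-PD1 and at 7.01, 7 and 7.26 after both agents. Both agents together put all 3 tumours above every vehicle and every low dose tumour, whereas anti-PD1 alone overlapped vehicle in replicate 3. The changes against vehicle were 0.84 (SE 0.32) and 0.98 (SE 0.32), with edgeR adjusted p-values of 0.297 and 0.483. With the hepatocyte score as a covariate they were 0.46 and 0.89. All 11 hepatocyte markers were lower after anti-PD1 than in vehicle (median -2.22, none past edgeR's test). Of these, 9 had an unadjusted p under 0.05 (13.7% of all genes). The sums were 795 to 2640 CPM against 8890 to 11800 CPM with none at 0, and after both agents 7 of 11 were higher (median 0.05). Mmp8 changed by -2.13 (SE 0.80) after anti-PD1 and by -2.21 (SE 0.80) after both, neither past the test. Without vehicle replicate 3 these changes were -0.98 and -1.06. Neutrophil markers were also lower, 11 of 11 tested after anti-PD1 (median -1.46) and 9 of 11 after both (median -0.49), with none past edgeR's test. At an unadjusted p under 0.05 there were 5 after anti-PD1 (13.7% of all genes) and 1 after both (8.2%). The 12 markers summed to 146 to 169 CPM and 230 to 325 CPM in these groups, within the range of vehicle, and their part was not tested.

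Mmp12 changed by -2.07 (SE 1.15) with both agents, and by -0.27 without vehicle replicate 3. Timp3 was at 9.96, 10.93 and 10.32 after both agents, below all tumours given anti-PD1 alone (11.06, 11.18 and 11.17) and all low dose tumours. The differences were -0.68 (SE 0.54) and -0.98 (SE 0.54), and that from vehicle was -0.49 (SE 0.54), or -0.96 without vehicle replicate 3. Against low dose alone, both agents differed by 2.28 (SE 1.17) for Mmp13 and 0.70 (SE 0.32) for Mmp9, or by 1.75 and 0.55 without low dose replicate 2. No gene passed edgeR's test in any of the 4 comparisons with an anti-PD1 group (0% in each). With DESeq2 614 genes passed for anti-PD1 and 150 for both agents against vehicle, 210 for both against anti-PD1 and 0 for both against low dose, with no member among them. At an unadjusted p under 0.05 there were 2 members each, Mmp8 and Mmp9, for anti-PD1 (13.7% of all genes) and for both agents against vehicle (8.2%), and 0 in the other comparisons.

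Other members of the metalloproteinase family (18 genes, among them Timp4 and the membrane-anchored inhibitor Reck) gave no call in edgeR. Of these, 11 could be tested at low dose over the 3 experiments, with 9 below 0, a median change of -0.45 and 5 at an unadjusted p under 0.05 (Mmp11, Mmp15, Mmp19, Mmp23 and Reck). Over all genes 15.9% had such a p. At high dose 12 could be tested, with 9 above 0 and a median of 0.48. Reck came closest, at 1.29 (edgeR adjusted p = 0.0517).

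The ADAM and ADAMTS proteases cut cell surface proteins and proteoglycans. Of 14 tested, 2 fell at low dose over the 3 experiments, where 1.72% of all genes passed: Adamts4 by 0.82 on the log2 scale (SE 0.17, edgeR adjusted p = 0.0197) and Adamts12 by 0.92 (SE 0.22, adjusted p = 0.0404). At high dose the shedding proteases Adam10 (-0.83, SE 0.17, adjusted p = 0.032) and Adam17 (-0.71, SE 0.15, adjusted p = 0.0324) fell and Adamts15 rose (3.74, SE 0.76, adjusted p = 0.0313), 3 of 14 where 15.6% of all genes passed. The same 3 passed between high and low dose, where 4.22% of all genes did, with changes of -0.82 for Adam10, -0.86 for Adam17 and 3.66 for Adamts15. These 3 calls between doses were lost with only the groups compared, when no gene passed edgeR's test, and 1 gene in all passed in each high dose comparison with the replicate block. The median over the list was -0.17 at low dose and -0.42 at high dose, against 0.02 over all genes in both.

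Plasminogen activation feeds the metalloproteinase cascade, since plasmin can activate several proenzymes. At low dose over the 3 experiments, 1 of 11 genes passed, where 1.72% of all genes did: Serpine2, an inhibitor of plasminogen activators, fell (-1.34, SE 0.25, adjusted p = 0.0077).

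Of 14 matrix proteins that metalloproteinases cut, 13 were below 0 at low dose over the 3 experiments, with a median of -0.32. The basement membrane genes Lama4 (-1.41, SE 0.25, adjusted p = 0.00545) and Col4a1 (-1.27, SE 0.31, adjusted p = 0.0418) fell, 2 of 14 where 1.72% of all genes passed. At high dose Col4a1 (-1.16, SE 0.25, adjusted p = 0.0325) and Col4a2 (-1.15, SE 0.22, adjusted p = 0.0273) fell, which is 2 of 14 where 15.6% of all genes passed, with 13 of 14 below 0 and a median of -0.62. Markers of endothelial cells, which lay down basement membrane, were also mostly lower. Of 10, 7 fell at low dose over the 3 experiments, with a median change of -1.25. At high dose 3 of 10 fell, with 8 below 0, 2 above 0 and a median of -0.48. Their sums were 217 to 607 CPM in the vehicle groups and 70.8 to 192 CPM at low dose. In p112 vehicle was at 229 to 441 CPM and high dose at 77.6 to 473 CPM, which overlap. None of the markers was at 0 in any library. Nearly all calls at high dose against vehicle, over all genes, were lost with only the groups compared or with the replicate block, as given in the last section. The part of endothelial cells in these values was not tested.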

How the data were processed

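RNA was sequenced from 32 tumours in 3 experiments. Per the labels and the study's methods, the authors made TruSeq stranded mRNA libraries, removed adapters with cutadapt 2.4, aligned to GRCm38 with STAR 2.7.2a and deposited the raw count of each Gencode gene. Which strand column was deposited is not given in the sources used here. Identifiers were matched to a Gencode annotation of the same build (99.93% of 54446).

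Groups came from the labels. Counts were scaled by TMM within each experiment (log2 CPM, prior count 2) and tested with edgeR 4.0.16 (quasi-likelihood, filterByExpr with a minimum count of 10, Benjamini-Hochberg adjustment over all genes) in 1 fit per experiment, and with the experiment as a covariate over the 3 experiments. Alternatives were DESeq2 1.42.0, limma 3.58.1 (voom), other scaling, no filter, a hepatocyte score, a replicate block, only the groups compared, and leaving out each library or experiment. The scripts were tested on simulated data. Libraries of a group were checked for duplicates by chi-square (at least 14 per degree of freedom over 36 pairs), and none was counted as one.

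The 10 genes were named in full. Of the ADAM and matrix lists, and of the plasminogen list at low dose, genes that passed the test were named. A few of the family at low p, and Csf1r and Mrc1 among the macrophage markers, were chosen after their values were seen. Other cell type markers were counted, and named only where at 0 in some library. For likeness, the nearest gene, and up to 3 genes, were named per member. The members, lists and tests were chosen with earlier results of these data known. Of 12 hepatocyte markers 11 were matched. Sequences are from RefSeq (GRCm38.p6), and no promoter row was used for Mmp2 and Mmp9. Calls of the plasminogen list in the dose experiment are not reported here.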

Additional observations from a re-analysis of the deposited data

Results flagged for a closer look

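Among the 4 vehicle tumours of each of p112 and p103, 2 of 20 sets of values held a library far from the rest, where chance flags about 1 in 20. Mmp12 in vehicle replicate 3 of p112 was at 1.88, with the other 3 between 3.83 and 3.96. Mmp9 in vehicle replicate 1 of p103 was at 7.33, with the others between 6.67 and 6.77.

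For 3 inhibitors, every low dose tumour of 1 experiment lay above its vehicle mean and every one of another lay below it. This count was made over the members and not over all genes, so it is not shown to be a trait of the inhibitors. For Timp1 the mean difference from vehicle was -0.82 in p112, 0.55 in p103 and -0.19 in p101, so that p112 and p103 differed by -1.37 and p103 and p101 by 0.74. The p103 value rests on low dose replicate 2, without which the fitted Timp1 change there went from 0.57 to -0.05. The p101 value rests on vehicle replicate 3, without which the fitted Timp1 change there went from -0.55 to 0.48. For Timp2 it was 0.13 in p112 and -1.12 in p103, a difference of 1.25. For Timp3 it was -1.76 in p103 and 0.91 in p101, a difference of -2.67. Without the same vehicle library the fitted Timp3 change in p101 went from 0.49 to 0.02. These pairs of experiments were not tested on their own. The edgeR test over the 3 experiments gave adjusted p-values of 0.63, 0.433 and 0.511.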

How the results depend on the processing

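Over the 10 genes and 13 comparisons, 61 values with 1 library left out and 40 with another alternative, of 2179 in all, had the opposite sign. None of these was past the test in either fit, while 8 lost a call and 18 gained one. The count of members past the test changed as follows. With DESeq2 it was 1 for low dose over the 3 experiments, 1 for the difference between experiments, 2, 3 and 2 for low dose in p112, p103 and p101, and 2 for high against low dose. Without p101 it was 1 over the 3 experiments. With only the groups compared it was 0 for high dose against vehicle and 0 for high against low dose. Leaving out 1 library gave 0 to 1 over the 3 experiments, 0 to 2 for high dose against vehicle and 0 to 4 for high against low dose.

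Deviations of same-numbered libraries correlated above 0.1 in 2 of 9 pairs in p112, 4 of 9 in p103 and 6 of 18 in p101. The highest values were 0.56, 0.67 and 0.62. Libraries with different numbers were not compared, so this check cannot exclude pairing by replicate number. With the replicate block, 0 members passed for high dose against vehicle (Timp1 -1.47, adjusted p = 0.192) and 0 for high against low dose (Mmp12 3.18, adjusted p = 0.148), where 1 gene in all passed in each. Mmp3 at low dose was -0.72 over the 3 experiments and -0.01 in p112 with the block.

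All genes past the test at high dose against vehicle numbered 2582, against 5275 with DESeq2, 1349 with voom, 416 with no filter, 283 with total count scaling, 196 with the hepatocyte score and 4 with only the groups compared. For high against low dose they numbered 697, against 3059, 782, 309, 196, 607 and 0. Leaving out 1 library gave 15 to 7030 and 62 to 4488. Over the 3 experiments they numbered 268, against 892 with DESeq2, 153 with no filter, 63 without p112, 17 without p103 and 407 without p101.

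Opposite signs at low dose over the 3 experiments were Mmp3 -0.69 and Timp3 0.30 without p103, Mmp8 0.38 and Mmp13 1.31 without p101, and Mmp13 0.78 and Timp1 0.04 without p112. Within p112 they were Mmp3 -0.26 with voom, Mmp2 0.09 and Mmp14 0.01 with the hepatocyte score, and in p101 Mmp9 -0.03 with that score. Leaving out 1 library gave -0.68 to 1.43 for Mmp3, -1.22 to 0.23 for Mmp13 and -0.50 to 0.04 for Timp1 over the 3 experiments. It gave -1.18 to 0.62 for Mmp3 in p112, and in p103 -0.65 to 5.17 for Mmp3, -0.02 to 1.76 for Mmp8 and -0.05 to 0.82 for Timp1. In p101 it gave -0.45 to 0.08 for Mmp14 and -0.91 to 0.48 for Timp1. The cause was not tested.

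With 3 or 4 tumours a group, 4 genes passed at low dose in p103 and 0 in p101, and Mmp3, Mmp8 and Mmp13 rest on few reads in several libraries.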
